A study of Mus musculus with 4 samples.

Results

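Mouse genes that carry only a number behind the prefix Gm (for "gene model") were predicted by annotation pipelines and have not been given a functional name. They were taken here as every row of a PRO-seq count table whose gene symbol is Gm followed by digits alone, which gave 527 of 12486 rows. These rows held 526 different symbols, since Gm28040 occurs on 2 rows. PRO-seq (precision run-on sequencing) labels the 3′ end of RNA that polymerase is still extending in isolated nuclei, so a count is a measure of engaged polymerase on a gene and not of the RNA that has accumulated. The cells were diploid mouse embryonic stem cells grown without feeders in medium with LIF, and all libraries came from 1 line in which Zfp574, a zinc finger protein, carries an auxin-inducible degron (AID) at its N terminus. That line also carries the plant E3 ligase adaptor OsTir1 under the EF1alpha promoter, with mCherry, inserted in a clonal parental line, so the control cells hold the same tag and ligase. The control (0 h) received no auxin and the depletion received 500 μM of the auxin indole-3-acetic acid for 6 h, with 2 libraries for each condition. No library came from auxin-treated cells without the degron tag. An effect of auxin itself and an effect of losing Zfp574 therefore cannot be told apart.

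Most numbered genes are long noncoding RNAs, a class of transcripts that are made by RNA polymerase II and do not encode a recognised protein. Many of them start beside a coding gene: a mammalian promoter often fires in both directions, and the RNA made upstream on the other strand is usually short-lived and scarce in steady-state RNA, which is why an assay of engaged polymerase counts it more readily. Other numbered genes are read-through models that join adjacent coding genes, unnamed members of the large rodent family of KRAB zinc finger genes, or the primary transcripts of microRNAs.

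In the GENCODE M21 annotation (mm10), all 527 members had a position. Of these, 427 were noncoding, 99 were coding and 1 was a transcribed pseudogene. The noncoding members comprised 205 antisense RNAs, 140 lincRNAs, 61 processed transcripts, 18 sense intronic and 3 sense overlapping RNAs. Each member was put in the first of these classes that applied to it. By position, 155 members started within 1000 bp of another gene of the table on the opposite strand (divergent), 130 otherwise overlapped a gene on the opposite strand (antisense), 55 of the rest overlapped a gene on their own strand, 29 of those left began within 5000 bp past the end of a gene on their strand (downstream), and 158 lay apart from other genes of the table. Without that order, 81 members overlapped a gene on their own strand and 49 lay downstream of one. The median member was 6767 bp long, against 21661 bp for the genes with other names.

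Members were a small part of the signal. They took 1.81% and 1.78% of all counts before auxin and 1.80% and 1.77% after it, and the 8 members of highest level held between 31.4% and 33.7% of the member counts of a library. Total counts per library ran from 3298864 to 6045216, and replicates of both conditions differed by more than counting noise (chi-square per degree of freedom 1.85 and 1.49). Of 14 listed embryonic stem cell markers, 11 were in the table, Pou5f1, Sox2 and Nanog among them, and summed to between 4454 and 4587 CPM (counts scaled to library size) in every library. Listed markers of neural cells summed to 72.7 to 94.7 CPM, of primitive endoderm to 12.6 to 15.3 CPM, of mesoderm to at most 9.61 CPM and of fibroblasts to at most 2.18 CPM, and no 2-cell-like marker was in the table. Zfp574 itself had 80, 130, 195 and 219 counts. The degron removes the protein, so its transcription does not check the depletion.

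To ask whether numbered genes changed when Zfp574 was removed, all genes were fitted together with edgeR's quasi-likelihood test and Benjamini-Hochberg adjustment, and calls required a change of 2-fold or more besides an adjusted p below 0.05. A filter on low counts left 421 members among 11853 genes tested. No member was called in either direction, while 0.321% of all genes tested were called lower and 0.0% higher. Without the fold threshold, 1 member fell and 2 rose, against 1.4% of all genes tested that fell and 1.11% that rose. At an unadjusted p under 0.05, 26 members were lower and 20 higher, against 7.66% and 8.53% of all genes tested. DESeq2 called no member at either threshold. It called 0.229% of all genes lower and 0.0% higher at 2-fold, and 0.49% and 0.114% at the adjusted p alone. In limma-voom 1 member was called lower, Gm35549, along with 0.346% of all genes. Under the scaling worked back from the deposited mean signal, the median over all genes tested was -0.105 on the log2 scale. There 14 members fell and 2 rose at the adjusted p, against 5.89% and 0.413% of all genes tested, and of these members Gm35549, which fell, also met the fold threshold, as did 0.481% of all genes. The median log2 fold change of the members tested was -0.01, as against 0.00 over all genes tested, and 226 of the 421 lay below 0. In 102 members the 2 depletion libraries were both lower than either control and in 77 both were higher, where the shares over all genes tested were 22.9% and 23.4%. In a bulk assay of this kind a change per cell and a change in the share of cells cannot be told apart.

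The depth behind a member was limited. The median of the mean counts was 41.0 over all 527 members, tested or not, and 148 over all 12486 genes. The median standard error on the log2 scale was 0.19 over the members tested, compared with 0.12 over all genes tested. The 95% interval of the fold change lay inside 2-fold in both directions for 358 members (85.0%), as against 93.0% of all genes tested. Of the other 63 intervals, 51 reached a 2-fold change and also held 0, 7 lay wholly below 0 and 5 wholly above it. The 106 members that were not tested had mean counts of at most 9.75, and comprised 96 noncoding and 10 coding members. Of these, 16 had a count of 0 in at least 1 library, and Gm13091 and Gm13609 had none in either depletion library, with 0 and 4 and with 2 and 0 counts in the controls, too few for a comparison.

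**Figure D1:**
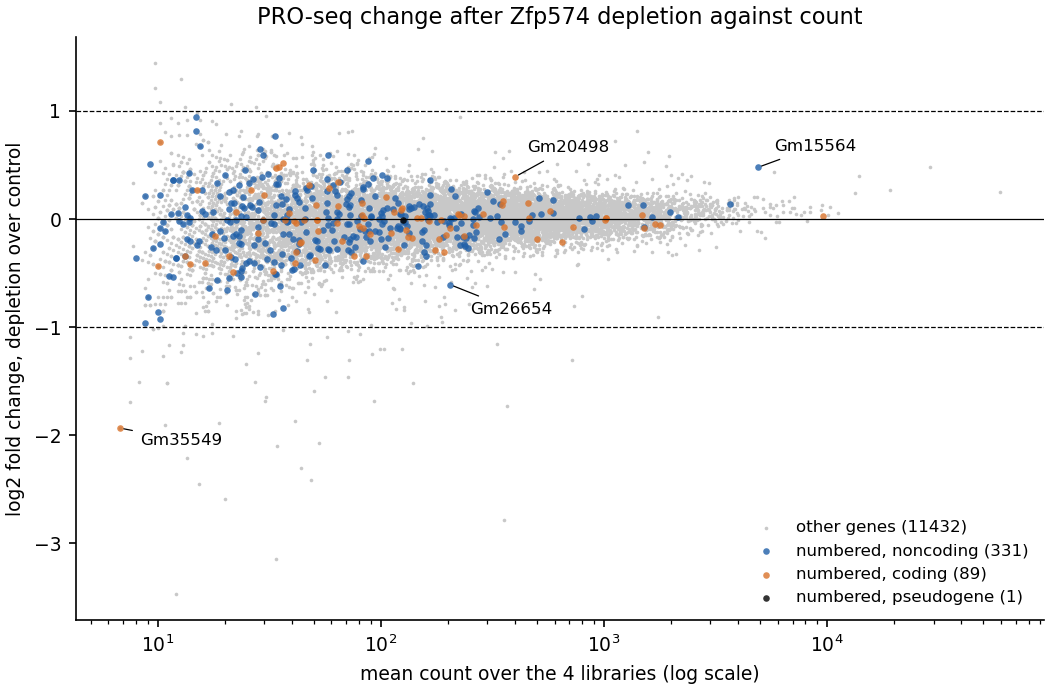
Log2 fold change of depletion over control (vertical axis) against the mean count over the 4 libraries (horizontal axis, log scale) for all 11853 genes tested, with grey points for genes with other names, blue for noncoding, orange for coding and black for pseudogene members, and dashed lines at a 2-fold change. The 421 members lie within 2-fold of 0 apart from Gm35549, and scatter more widely at low counts.

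The 3 members that passed the adjusted p were all changed by less than 2-fold. The windows printed below show the sequence around the annotated start (250 bp before it and 50 bp from it, GRCm38.p6, on the strand of the gene) for those where it adds to the values, together with Gm35549, which lies beside the only called neighbour. Capitals mark a GC box in the first (GGGCGG, here as its reverse complement), a tRNA gene in the second, and nothing in the third.
Gm15564, chr16:35983181-35983480, minus strand: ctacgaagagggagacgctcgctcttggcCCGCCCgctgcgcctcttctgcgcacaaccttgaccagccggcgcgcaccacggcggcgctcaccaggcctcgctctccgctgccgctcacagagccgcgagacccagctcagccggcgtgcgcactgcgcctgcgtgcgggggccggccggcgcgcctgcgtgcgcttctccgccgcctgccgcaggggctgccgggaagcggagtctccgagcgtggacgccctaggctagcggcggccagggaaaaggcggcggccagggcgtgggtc
Gm26654, chr3:96402131-96402430, plus strand: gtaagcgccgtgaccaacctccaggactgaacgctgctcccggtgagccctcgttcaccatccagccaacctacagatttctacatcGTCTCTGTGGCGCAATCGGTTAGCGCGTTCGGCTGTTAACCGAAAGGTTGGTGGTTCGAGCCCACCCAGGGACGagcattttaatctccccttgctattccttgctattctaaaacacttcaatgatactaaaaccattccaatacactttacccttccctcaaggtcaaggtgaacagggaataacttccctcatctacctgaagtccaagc
Gm35549, chr9:122843986-122844285, minus strand: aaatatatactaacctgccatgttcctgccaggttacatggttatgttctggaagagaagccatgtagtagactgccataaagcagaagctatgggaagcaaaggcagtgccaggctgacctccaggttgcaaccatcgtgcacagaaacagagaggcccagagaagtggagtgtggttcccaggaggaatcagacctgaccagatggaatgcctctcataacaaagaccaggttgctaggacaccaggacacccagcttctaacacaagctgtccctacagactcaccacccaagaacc

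Gm15564 (ENSMUSG00000086324) is an antisense RNA of 16479 bp at chr16:35966752-35983230 on the minus strand, across from Kpna1, which encodes an importin, and Parp9, of the ADP-ribosyltransferase family. It was counted 3162 and 2728 times without auxin and 7392 and 6263 times with it. Scaled to the library (CPM with TMM factors), these were 950 and 745 against 1242 and 1115. Both depletion libraries lay above both controls, and the groups did not overlap. Its mean was 847 ± 146 CPM (SD, n = 2) in the control and 1178 ± 89.9 CPM after depletion, or 0.48 on the log2 scale (standard error 0.07, edgeR adjusted p = 4.2e-05). The 2 genes across from it had log2 fold changes of 0.12 (Kpna1, adjusted p = 0.442) and 0.11 (Parp9, adjusted p = 0.899). DESeq2 gave the same size and did not call it (adjusted p = 0.712, the highest of its alternatives).

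The start window of Gm15564 is rich in CpG, with a G+C content of 75.3% and an observed over expected CpG ratio of 1.01, and it holds 1 GC box. Over all member windows the medians were 56.0% and 0.51. The window of Gm35549 has few CpGs, with a ratio of 0.05 at a G+C content of 50.3%. Searched on both strands for the GC box (GGGCGG), the CCAAT motif, the TATA box (TATAAA) and an ETS site (CCGGAAG), of which none contains another, Gm35549 had no match and Gm26654 had 1 CCAAT. Among all 12474 windows, 59.6% held the GC box, 38.7% the CCAAT motif, 7.26% the TATA box and 16.7% the ETS site, and among the 527 member windows 44.2%, 34.3%, 5.88% and 12.5%. Divergent members held the GC box in 70.3% of windows and members lying apart in 31.6%. A match is a run of letters and not a bound site, and the study's corrected start sites may lie elsewhere.

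Gm20498 (ENSMUSG00000021139, chr12:81358860-81532905, minus strand, 174046 bp) is a coding read-through model that begins 6 bp from the start of Synj2bp, a protein of the outer mitochondrial membrane, and runs over Cox16, which assembles cytochrome c oxidase, and Adam4. Its counts were 229 and 274 without auxin and 568 and 522 with it, or 68.8 and 74.8 against 95.4 and 92.9 CPM. The depletion libraries were the higher ones, without overlap. On the log2 scale the rise was 0.39 (standard error 0.08, edgeR adjusted p = 0.00736). Synj2bp had 26, 32, 64 and 76 counts and a log2 fold change of 0.54 that did not pass (adjusted p = 0.208), and Cox16, with 484, 595, 987 and 906 counts, had one of 0.09 (adjusted p = 0.581). Cox16 lies inside the annotated span of Gm20498 and had more counts, so reads of the 2 genes were not simply added up over the span. How reads in the shared stretch were assigned is not given in the sources used here. The call was lost without control replicate 1 (adjusted p = 0.066), depletion replicate 1 (0.121) or depletion replicate 2 (0.057), and in DESeq2 (0.41), within a range of 0.000366 to 0.41 over its alternatives.

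Gm26654 (chr3:96402381-96402948, plus strand) is a lincRNA of 568 bp and the only member that fell. Controls gave 181 and 209 counts and depletion 231 and 193, which is 54.4 and 57.0 CPM against 38.8 and 34.4. Both depletion libraries were below both controls. Its mean went from 55.7 ± 1.87 to 36.6 ± 3.15 CPM (SD, n = 2), with a log2 fold change of -0.61 (standard error 0.11, edgeR adjusted p = 0.000844). The call was lost without depletion replicate 2 (adjusted p = 0.0561) and in DESeq2 (0.103), the highest value over its alternatives. The gene on the other side of its start, 4930477E14Rik at 367 bp, had 2, 3, 3 and 5 counts and was not tested.

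A gene for asparagine tRNA of 74 bp ends 90 bp before the annotated start of Gm26654, on the same strand (chr3:96402218-96402291), and is 1 of 10 tRNA genes within 50000 bp. RefSeq draws Gm26654 longer than GENCODE, with the tRNA gene inside it. tRNA genes are transcribed by RNA polymerase III, which also extends RNA in a nuclear run-on. Whether such reads enter the count of Gm26654 was not tested. Of the other members, Gm11335 alone had tRNA genes within 1000 bp on its own strand, with one for methionine inside it, and its log2 fold change was 0.21 (adjusted p = 0.545). Of 26 genes with other names in that position, all tested, none passed the adjusted p in either direction in edgeR, with log2 fold changes from -0.66 to 0.79. The tRNA genes were looked up after these fold changes had been seen.

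**Figure D2:**
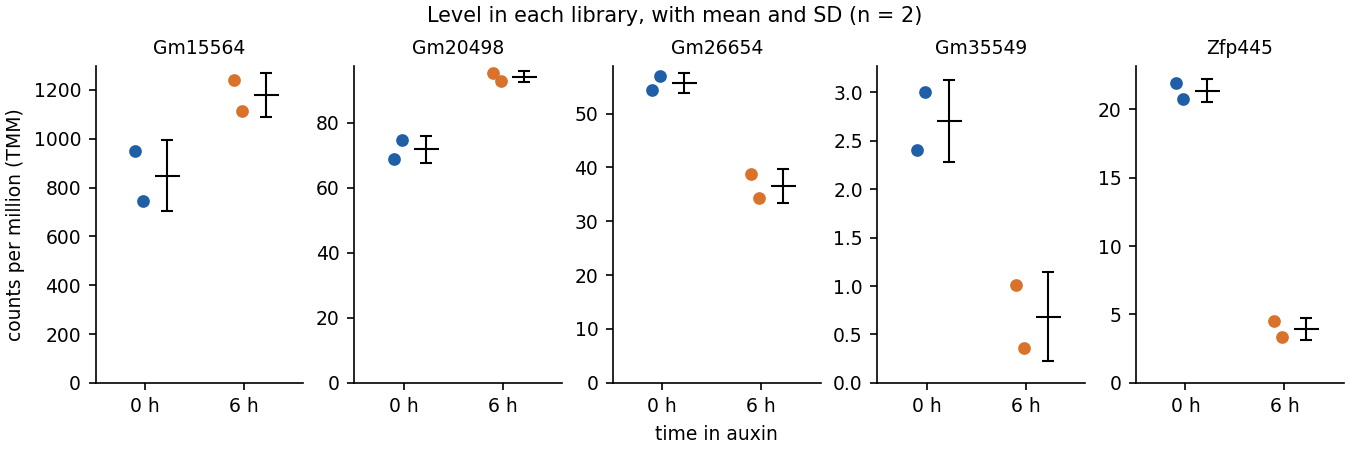
Level in CPM in each library (vertical axis from 0, a scale of its own for each gene) at 0 h and at 6 h of auxin for the 3 members that passed the adjusted p, for Gm35549 and for its neighbour Zfp445, with 1 point per library and the mean and SD (n = 2) beside them. Gm15564 and Gm20498 are higher at 6 h, and Gm26654, Gm35549 and Zfp445 lower, with no overlap between the conditions.

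Gm35549 (ENSMUSG00000107504), an annotated coding gene of 21260 bp at chr9:122822776-122844035 on the minus strand, had the lowest fold change of the members tested and the lowest mean count among them, 6.75. Controls gave 8 and 11 counts and depletion 6 and 2, or 2.40 and 3.00 against 1.01 and 0.36 CPM. The depletion libraries lay below the controls once scaled to depth. It passed the filter on low counts through its control libraries alone. A gene at this depth is tested only where 1 condition is high, so its fall is not independent of the filter. Its log2 fold change of -1.93 had a standard error of 0.57 and a 95% interval from -3.10 to -0.77, and did not pass (edgeR adjusted p = 0.066). The adjusted p ran from 0.0179 in limma-voom to 1.0 in DESeq2 over its alternatives.

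Gm35549 was the only member with a called gene beside it. It begins 494 bp past the annotated end of Zfp445, on the same strand. Zfp445, a KRAB zinc finger protein that keeps imprinting control regions methylated, had 73 and 76 counts before and 27 and 19 after auxin, a log2 fold change of -2.41 (edgeR adjusted p = 1.55e-08). On the other strand Tcaim overlaps Gm35549, with 39, 51, 83 and 59 counts and a log2 fold change of -0.07 (adjusted p = 0.919). Polymerase commonly runs on for some distance past the end of a gene. How much of the count of Gm35549 comes from polymerase that started at Zfp445 was not tested.

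**Figure D3:**
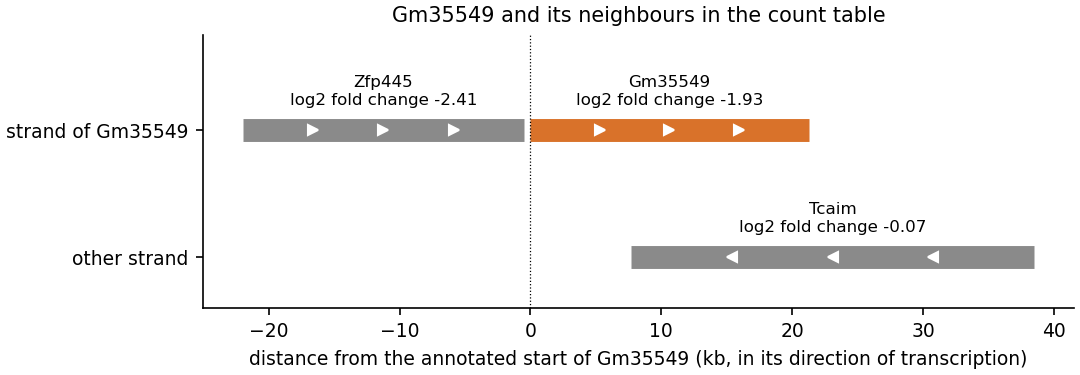
Map of Gm35549 (orange) and the 2 genes of the table beside it, drawn to scale as distance in kb from the annotated start of Gm35549 in its direction of transcription, with white arrowheads for the direction of each gene and its log2 fold change above it. Zfp445 ends 0.494 kb before the start of Gm35549 on the same strand, and Tcaim lies on the other strand.

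Members were then set beside their neighbours, to ask whether a numbered gene and the named gene it adjoins moved together. Pairs of 2 numbered genes were left out. Among 121 divergent pairs with both genes tested, Pearson's r of the log2 fold changes was 0.29 and 57.9% had the same sign. Among 159 antisense pairs r was 0.18 and 60.4% had the same sign, but 21 of these pairs share 1 member, Gm29994 in the protocadherin gamma cluster, and without them r was 0.08 and the share 54.3%. Among 96 pairs on the same strand r was 0.51 with 74.0% of the same sign, and 0.46 with 66.7% without the 21 protocadherin pairs of Gm38182. These pairs may share reads. For the 46 downstream pairs r was 0.65, which rests on Gm35549 and Zfp445: in the other 45 it was 0.08, and 57.8% had the same sign. These correlations run across pairs within the same 4 libraries, where pairs are not independent, and are given as a description.

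**Figure D4:**
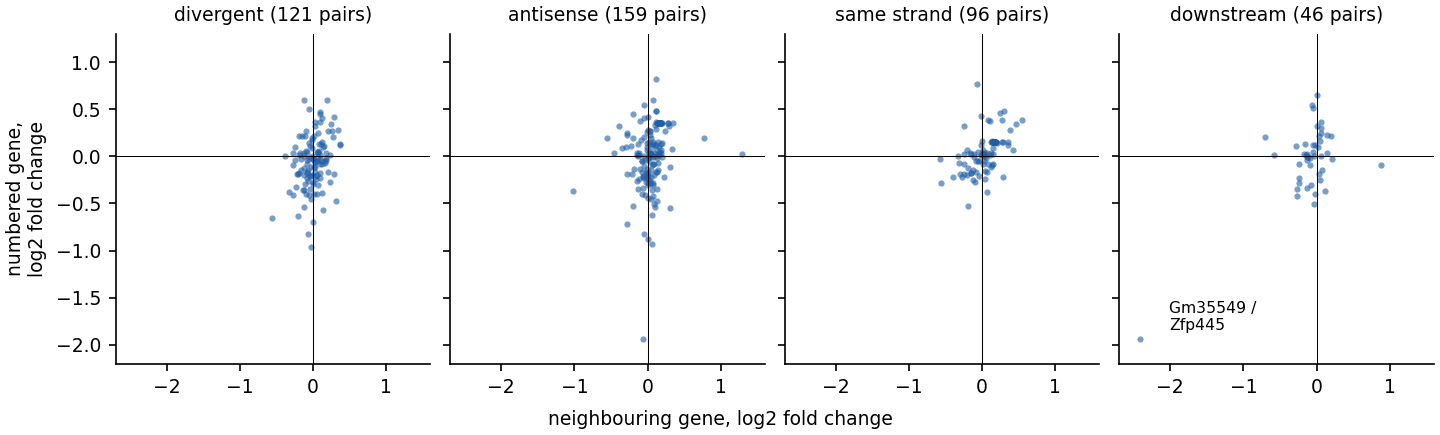
Log2 fold change of each numbered gene (vertical axis) against that of its neighbour with another kind of name (horizontal axis), with 1 point per pair of tested genes, split into divergent, antisense, same-strand and downstream pairs. Points gather around 0 in each panel, and the pair of Gm35549 and Zfp445 stands alone at the lower left of the downstream panel.

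There were 4 divergent members beside a gene that passed the adjusted p, and none of the 4 passed itself. Fkbp4, a co-chaperone of Hsp90, had a log2 fold change of -0.38 (adjusted p = 0.0439) and Gm10069, which starts 80 bp from it, one of 0.00 on 581, 576, 1017 and 907 counts. The high-mobility-group gene Hmga1 had one of -0.27 (adjusted p = 0.0163) and Gm49774, at 21 bp, one of -0.10 on 610, 663, 1026 and 947 counts. At Smad7, an inhibitor of TGF-beta signalling, the value was 0.20 (adjusted p = 0.0262), with Gm20544 at -0.17. At the linker histone gene H1f10 it was 0.34 (adjusted p = 0.0119), with Gm5577 at 0.28 (adjusted p = 0.196). The signs therefore matched at Hmga1 and H1f10 and were opposite at Smad7 and Fkbp4, where the value of Gm10069 was within 0.07 of 0, its standard error. The difference between partners was not tested.

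The same held where a member lies across from or past a gene that passed the adjusted p. Rbm25, a splicing factor, had a log2 fold change of -0.28 (adjusted p = 0.000452), and Gm29361 across from it one of 0.22 with a standard error of 0.19. Dusp12, a phosphatase, had one of -0.46 (adjusted p = 0.00298), and Gm9929 across from it 0.04 with a standard error of 0.12. Odc1, the first enzyme of polyamine synthesis, had one of -0.28 (adjusted p = 0.00584), and Gm36862, which begins 2263 bp past its end, 0.11 with a standard error of 0.28. Gm11714, across from the lipid transfer gene Pitpnc1 (0.20), had -0.01. Gm17300, across from Snhg3 (-0.28), had at most 3 counts in a library and was not tested. No member named here passed the test.

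Among members with a mean count of at least 20, the largest falls and rises without overlap between the conditions were read as values, since none but those already given passed the adjusted p. Gm15545 starts 332 bp from Prmt1, an arginine methyltransferase, on the opposite strand. Its counts were 38 and 37 before and 39 and 31 after auxin, or 11.4 and 10.1 against 6.55 and 5.52 CPM, a log2 fold change of -0.82 (adjusted p = 0.0564), where Prmt1 had -0.07. It passed under the recovered scaling (adjusted p = 0.0109), in a range up to 1.0 in DESeq2. Gm11946, across from the smooth muscle gene Smtn, had 37, 32, 38 and 24 counts and a log2 fold change of -0.88 (adjusted p = 0.0656), where Smtn had 0.01. It passed under the recovered scaling (adjusted p = 0.0119) and without control replicate 2 (0.0309, at -1.05 on the log2 scale), in a range up to 1.0 in DESeq2. In both members the depletion libraries lay below the controls. The other 3 values on this side were -0.70 for Gm30108 (divergent from the kinase gene Camk2g, -0.01), -0.65 for Gm9949 and -0.62 for Gm42064 (across from Gal3st3, 0.06).

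On the other side, Gm50081, a sense overlapping RNA within the span of the GTPase gene Rab18, had 17 and 18 counts before and 45 and 54 after auxin, a log2 fold change of 0.77 (adjusted p = 0.129) against -0.07 for Rab18. Gm13184 had 52 and 51 counts and then 135 and 113, a log2 fold change of 0.54 (adjusted p = 0.0867). It lies across from Suv39h2, which methylates lysine 9 of histone H3 (-0.04), and begins past the end of the nuclease gene Dclre1c (-0.07). In both members the depletion libraries were the higher. The other 3 were 0.65 for Gm43698 (past the end of the zinc transporter gene Slc30a9, 0.01), 0.59 for Gm13610 (divergent from the mannosyltransferase gene Pomt1, 0.18) and 0.59 for Gm4285 (divergent from Tpt1, -0.13).

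The 8 members of highest level were counted deeply enough for narrow intervals, and 7 of them did not pass the adjusted p. Gm21992, a read-through model on the minus strand of chromosome 19 that covers the splicing regulator gene Rbm4, had 6863 and 7350 counts before and 12399 and 11637 after auxin. These were 2063 and 2006 against 2083 and 2071 CPM, and the log2 fold change was 0.03 with a 95% interval from -0.05 to 0.11. Gm20634, a processed transcript of 2956 bp with no neighbour in the table, had 1181, 1268, 2104 and 1996 counts and a log2 fold change of 0.02 with an interval from -0.09 to 0.13. For Gm28039, Gm43809, Gm20716 and Gm38431, which overlap Zfp644, Mrpl33, Adnp and Fdx2 on the same strand, the values lay between -0.05 and 0.06. Of these partners Zfp644 had 0.42 (edgeR adjusted p = 0.0803), Mrpl33 0.01, Adnp -0.05 and Fdx2 -0.09. Gm28373 reached 0.14 (adjusted p = 0.132), and Itpk1, an inositol phosphate kinase gene that overlaps it, 0.20 (adjusted p = 0.00509). Without control replicate 2 Gm28373 had 0.21 and passed (adjusted p = 0.00222), in a range up to 1.0 over its alternatives. Per kb of annotated length the order of mean level was Gm20634 (119 CPM per kb), Gm15564 (61.5), Gm21992 (29.9), Gm38431 just above Gm28373 (14.4), Gm20716 (7.79), Gm43809 (4.39) and Gm28039 (3.05), and the short Gm26654, at 81.3 CPM per kb, came after Gm20634.

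Zinc finger genes were examined as a group of their own, since many numbered coding genes belong to this family and Zfp574 is itself a zinc finger protein. KRAB zinc finger proteins bind DNA through arrays of C2H2 fingers, and many of them silence transposable elements. Among the 99 coding members, 14 had at least 3 C2H2 motifs in their translated coding sequence, of 380 such genes in the table. All 14 were tested and none passed the adjusted p. Their log2 fold changes ran from -0.31 (Gm12258, 8 motifs) to 0.15 (Gm15446, 16 motifs), with a median of -0.02 as against -0.03 over all 369 zinc finger genes tested, of which 14 fell and 4 rose. All 14 intervals lay inside 2-fold.

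The zinc finger member with the smallest p was Gm44973, with 392 and 420 counts before and 616 and 569 after auxin. Its levels of 118 and 115 CPM lay above the 104 and 101 CPM after depletion, a log2 fold change of -0.18 (adjusted p = 0.205). It passed under the recovered scaling alone (adjusted p = 0.0222), in a range up to 1.0 in DESeq2. It overlaps Zfp865 on the same strand, which had -0.16 (adjusted p = 0.317). Gm13212, with 20 motifs the longest array among them, had 121, 127, 201 and 205 counts and a log2 fold change of -0.02, with an interval from -0.26 to 0.23. Gm4924, with 18 motifs, had 180, 170, 311 and 280 counts and a value of 0.03. Gm49359, which RefSeq names Zfp935, had 33, 29, 50 and 51 counts and a value of -0.02. In each of these 3 members the CPM of the conditions overlapped. The other 8 (Gm28557, Gm6871, Gm14325, Gm7072, Gm35315, Gm45871, Gm20422 and Gm49345) had values from -0.22 to 0.09. Of these, Gm28557, Gm20422 and Gm49345 overlap the zinc finger genes Zfp708, Zfp866 and Zfp729b on the same strand and may share reads with them. Only reads with a single best position in the genome were kept, so genes with near-identical copies can be undercounted. How far this touches the zinc finger members was not tested.

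Within the annotated spans of 10 members lie 13 named microRNA genes on the same strand. The counted spans can differ from these, and whether the counts of these members cover the microRNA precursors was not tested. Of these members, Gm13648, Gm20532, Gm28373, Gm38431 and Gm49322 also overlap another gene on the same strand and may share reads with it. The mature RNAs of the miR-200 family, which hold epithelial identity by repressing Zeb1 and Zeb2, come from members at 2 loci and are shown with the seed (bases 2 to 8) in capitals, to show that each locus carries both seeds of the family. RefSeq (GRCm38.p6) gives the sequences.
mmu-miR-200b-3p (in Gm13648): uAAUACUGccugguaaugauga
mmu-miR-429-3p (in Gm13648): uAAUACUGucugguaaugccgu
mmu-miR-200c-3p (in Gm15884): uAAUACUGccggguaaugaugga
mmu-miR-200a-3p (in Gm13648): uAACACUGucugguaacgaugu
mmu-miR-141-3p (in Gm15884): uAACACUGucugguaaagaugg
The first 3 share the seed AAUACUG and the other 2 the seed AACACUG.

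Gm13648, on chromosome 4 and host of Mir200a, Mir200b and Mir429, had 93 and 103 counts before and 155 and 164 after auxin, or 28.0 ± 0.115 against 27.6 ± 2.23 CPM (SD, n = 2). In CPM both controls lay between the depletion libraries. Its log2 fold change was -0.02 with an interval from -0.30 to 0.25. Gm15884, on chromosome 6 and host of Mir141 and Mir200c, had only 12, 10, 12 and 7 counts, with 3.61 and 2.73 CPM against 2.02 and 1.25 CPM. It passed the filter on low counts through its control libraries alone, so its fall and its interval are not independent of that filter. The depletion libraries were the lower ones, and the log2 fold change of -0.93 had an interval from -1.84 to -0.02 (adjusted p = 0.296), so that neither a 2-fold fall nor a value close to 0 could be set aside at this depth.

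The other 8 hosts had log2 fold changes from -0.22 to 0.21, and none passed the adjusted p. Gm20532, whose span holds the endothelial Mir126a, had 491 and 580 counts before and 784 and 742 after auxin, a log2 fold change of -0.22 (adjusted p = 0.0896). It passed under the recovered scaling (adjusted p = 0.0053), in a range up to 1.0 in DESeq2. Egfl7, which overlaps it on the same strand and may share reads with it, had -0.40 (adjusted p = 0.255). Its depletion libraries, at 132 CPM each, lay below the 148 and 158 CPM of the controls. Gm20732, host of Mir30d, had 214, 229, 418 and 405 counts and a value of 0.17 (adjusted p = 0.383). Gm49890, host of Mir31, had 93, 109, 175 and 144 counts and a value of -0.07. These counts were taken over the host gene and do not measure the mature microRNA.

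**Figure D5:**
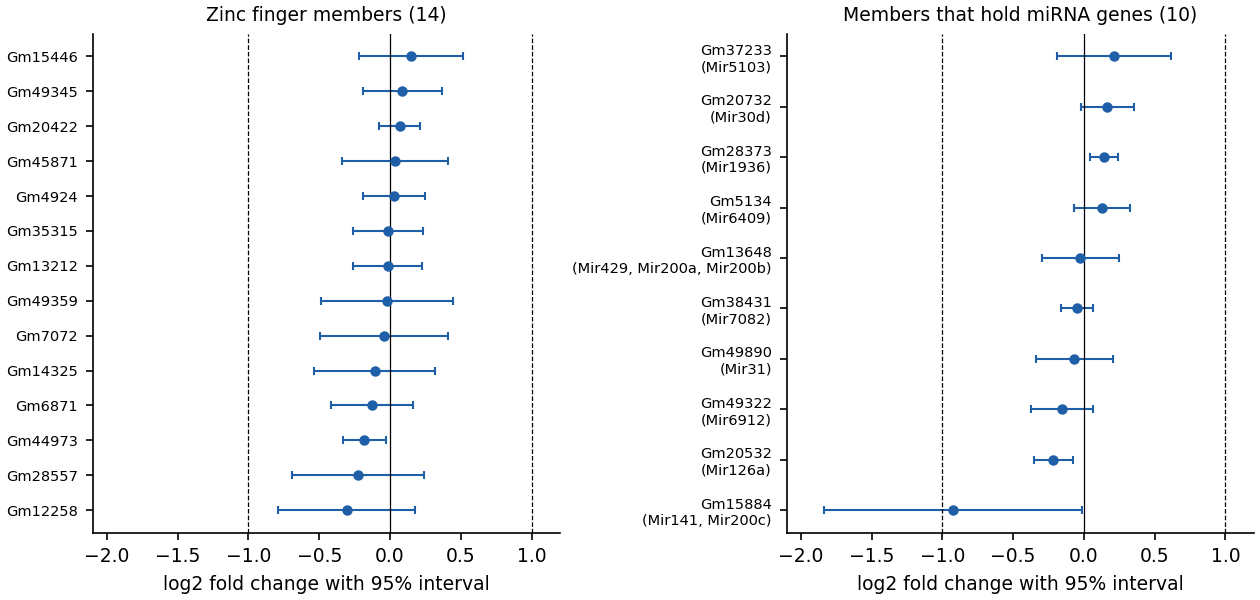
Log2 fold change with its 95% interval (horizontal axis, edgeR) for the 14 zinc finger members (left) and the 10 members that hold microRNA genes (right, with those genes in brackets), and dashed lines at a 2-fold change. All 14 intervals on the left and 9 of the 10 on the right stay inside 2-fold, and that of Gm15884 reaches past it.

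Members were finally set beside genes of other kinds. The median log2 fold change was -0.01 for the 331 noncoding members tested and -0.02 for the 89 coding ones. By position it was -0.05 for divergent, 0.00 for antisense, 0.02 for same-strand, 0.02 for downstream and -0.02 for members lying apart, with quartiles of -0.21 and 0.10 among divergent members. Genes named after a cDNA clone (ending in Rik), which are uncharacterised in the same way, had 4 that fell and 5 that rose among 427 tested, with 1 called at 2-fold, and a median of -0.01. Among 44 listed long noncoding RNAs with names, 9 fell and 4 rose. Trerf1, among those that rose, is noncoding in GENCODE M21 and coding in RefSeq. Those that fell include Snhg17, Snhg5 and Snhg12, hosts of small nucleolar RNAs (snoRNAs). No member holds an annotated snoRNA gene on its own strand, whereas 221 genes with other names tested do, and 19 of those fell and 1 rose in edgeR. Among the 22 of them that are noncoding, 10 fell and none rose. Whether members differ from these lists was not tested.

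Members are shorter than most genes, so they were also read by length. All genes were split by length into 5 classes of equal size, and 261 members fell in the shortest class (300 to 6714 bp), where 62.1% of them passed the filter on low counts. From the shortest to the longest class the median log2 fold change of members was -0.03, -0.02, -0.01, -0.04 and 0.03, and that of the genes with other names -0.07, -0.06, -0.03, 0.01 and 0.08. Of the 21 members in the longest class, 4 lay below 0, Gm20498 was among the others, and the range was -0.23 to 0.39. What length contributes to the change of a member was not tested.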

How the data were processed

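PRO-seq was done by the study on 2 libraries per condition. Per the labels and the study's methods, the authors trimmed adapters with cutadapt 1.18, mapped reads to mm10 with Bowtie 1.2.2, kept single best positions, collapsed molecular identifiers and kept the last base of the RNA on its strand. The values deposited by the authors are raw counts (1 for each collapsed read) over transcripts whose starts the authors had moved to CAGE sites, so the counted spans can differ from the annotation used here: among 52 pairs of nested genes on the same strand that include a member, the inner gene had more counts in 3. The authors' own DESeq2 comparison holds a mean normalized signal, fold changes and p-values, of which only the deposited signal was used, to recover its size factors (0.699, 0.740, 1.32 and 1.24). Their methods describe scaling on Drosophila spike-in reads with the same factor for the replicates of a condition. The recovered factors differ between replicates and are therefore not taken for that scaling, and spike-in reads were not used here.

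Counts were fitted with edgeR 4.0.16 in R 4.3.3 (TMM, filterByExpr with a minimum count of 10 and a total of 15, two-sided glmQLFTest after glmQLFit, no covariates). P-values were adjusted over all 11853 genes tested (Benjamini-Hochberg). Standard errors follow from the F statistic, and intervals are at 95%. The study's methods call the replicates biological, and p-values measure the spread between these libraries. Alternatives used DESeq2 1.42.0, limma 3.58.1 (voom), other scalings and filters, a replicate block and left-out libraries. The scripts were tested on simulated data. Tables and sequences were handled in Python 3.11.15.

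The members and the lists were chosen with earlier results of these data known. Members were named if they passed the adjusted p, if they were among the 8 of highest level or among the 5 largest falls or rises without overlap at a mean count of at least 20, if they lay beside a called gene, or if they had at least 3 C2H2 motifs. None of 18 listed 2-cell-stage numbered genes, nor Gm10324, Gm42418 or Gm26917, was in the table. Positions came from GENCODE M21, which matched 12474 genes, and 279 members had a RefSeq entry, of which 5 under another symbol. C2H2 motifs were counted in coding sequences translated from GENCODE M21. Neighbours of members, microRNA hosts, tRNA and snoRNA genes were not tested as groups, their adjusted p come from the fit across all genes, and the last 3 were looked up after fold changes had been seen. Some neighbours are not reported here.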

Additional observations from a re-analysis of the deposited data

How the results depend on the processing

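With 2 libraries per condition, the members tested had a median standard error of 0.19 on the log2 scale. Small changes in most members lay below what could be resolved, and values close to 0 could change sign. In the alternatives that kept all 4 libraries no member was called higher, where 0.00844% of all genes were with the replicate block. Gm35549 was the 1 member called lower there, under the recovered size factors, limma-voom and the replicate block. Of all genes, 0.481%, 0.346% and 0.363% were called lower in these fits. Without a fold threshold the members that fell numbered 14 under the recovered size factors, 2 in limma-voom, 6 with the replicate block and 0 in DESeq2, where 5.89%, 1.43%, 2.53% and 0.49% of all genes fell. Those that rose numbered 4 with the block and 0 in DESeq2, where 3.09% and 0.114% of all genes rose, and 1 once members that overlap a gene on the same strand were left out. With the block Gm15545 (adjusted p = 0.0173), Gm11946 (0.014), Gm20532 (0.0276), Gm28373 (0.0157) and Gm13184 (0.0436) passed. Across the genes tested, the difference between the replicates of the control correlated with that of the depletion at 0.03. With 2 libraries per condition, this does not settle whether the replicate numbers pair the libraries. The recovered factors put the median of all genes at -0.105 (log2) and that of the members at -0.118. The latter was -0.048 with library totals, -0.034 in DESeq2 and -0.033 without a filter on low counts. With 1 library left out at a time, the log2 fold change of Gm11946 ran from -1.2 to -0.63. Members were counted in the same fits. Without a fold threshold 0 fell without depletion replicate 2 and 2 fell without control replicate 2 or depletion replicate 1 (0.675%, 1.91% and 0.633% of all genes), while 4 rose without control replicate 2 (2.29% of all genes) and 1 without each other library. The members had a median from -0.043 to -0.0085; the lone library of a condition is then assumed to vary like the others.

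Gm15564 stayed past the adjusted p in each fit but DESeq2, where Gm20498 and Gm26654 were lost too. Of the named members, 8 high-level or zinc finger members changed sign with the scaling. With library totals and with the recovered factors the values were -0.017 and -0.087 for Gm20634, -0.0034 and -0.072 for Gm21992, -0.010 and -0.080 for Gm43809, and -0.0059 and -0.075 for Gm4924. With the recovered factors alone they were -0.033 for Gm20422, -0.039 for Gm28039, -0.066 for Gm45871 and -0.016 for Gm49345. Leaving out 1 library turned the sign of others, with ranges of -0.62 to 0.0527 for Gm12258, -0.0708 to 0.0426 for Gm13212, -0.31 to 0.0649 for Gm14325, -0.11 to 0.43 for Gm15446, -0.00238 to 0.034 for Gm20634, -0.52 to 0.11 for Gm28557, -0.19 to 0.17 for Gm35315, -0.11 to 0.00939 for Gm38431, -0.000502 to 0.0487 for Gm43809, -0.19 to 0.34 for Gm45871, -0.0831 to 0.14 for Gm4924, -0.18 to 0.14 for Gm49359 and -0.0947 to 0.0181 for Gm7072. None of these members passed the adjusted p in the fit as reported, and the cause was not tested.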

Other observations

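Gm28040 stands on 2 rows of the table under different identifiers, ENSMUSG00000115958 and ENSMUSG00000098306, which begin at the same base and end 179 bp apart on chromosome 1. The first had 25 and 32 counts before and 44 and 54 after auxin, the second 39, 39, 60 and 68. Their log2 fold changes of 0.06 and -0.01 were within their standard errors of 0.24 and 0.21. RefSeq lists the first under Kiss1, the gene for kisspeptin.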
